A study of Mus musculus with 4 samples.

Results

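The genes described here encode receptors with which myeloid cells, liver macrophages (Kupffer cells) and liver sinusoidal endothelium recognise microbes, antibodies, sugars and dying cells. They were taken by symbol: every gene whose name starts with Tlr and a digit, Fcgr, Fcer, Clec, Ms4a, Cd300, Siglec, Lilr, Pilr or Trem, together with Tyrobp, Marco, Msr1, Mrc1, Cd68, Cd163, Vsig4, Timd4, Adgre1, Axl and Mertk. That gave 114 of the 56953 gene rows: 33 C-type lectins, 19 MS4A genes, 12 CD300 genes, 12 Toll-like receptors, 11 scavenger and phagocytic receptors including the adaptor Tyrobp, 7 LILR and PILR genes, 6 Siglecs, 6 TREM genes, 5 Fc gamma and 3 Fc epsilon receptors. A choice by symbol also takes in genes that are no surface receptors of leukocytes, such as Clec16a, an endosomal protein, and Clec3b and Clec11a, which are secreted. Of the 114, 111 are annotated as protein coding. Clec2f and Clec2j are pseudogenes, and Clec7a is annotated as a polymorphic pseudogene.

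Transcripts were counted by 3' mRNA sequencing in 4 mouse liver samples, 2 per group, all at 2 months of age and on a normal diet. All 4 carried the Ubc13 flox/flox alleles. The control samples (genotype label WT) are Alb negative and the deletion samples (genotype label "Hepatic Ubc13 deletion liver") are Alb positive, taken here as the absence or presence of a Cre recombinase driven by the albumin promoter, which is active in hepatocytes. The deletion is thus directed at hepatocytes, while most of the receptors described are made by other cells of the liver. Ube2n, the gene of Ubc13, codes for a ubiquitin-conjugating enzyme that builds K63-linked chains, including those formed downstream of Toll-like receptors. The labels do not say that the replicates came from separate animals, so p-values measure only the spread between these samples. That spread may be technical, although the 2 deletion samples did not hold the same RNA, as the Ddx3y counts below show. The source is labelled liver, while the library protocol in the labels speaks of primary hepatocyte RNA.

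Toll-like receptors bind microbial lipids, proteins and nucleic acids and signal through the adaptors MyD88 and TRIF towards NF-kB and interferon genes. Many Fc receptors, C-type lectins, TREM, CD300, LILR and PILR proteins carry no enzyme of their own. They signal through tyrosine motifs that either activate, as in the paired subunits Tyrobp (DAP12) and Fcer1g (FcR gamma chain), or inhibit, as in the tails that recruit the phosphatases SHP-1 and SHP-2. Kupffer cells carry Clec4f, Vsig4, Timd4 and Marco, and sinusoidal endothelium carries Clec4g, Fcgr2b and Mrc1, with which both cell types clear particles and complexes from portal blood.

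Libraries held 16270424 to 17800138 counts, and the 114 genes together held 0.0846% (exact Clopper-Pearson 95% interval 0.0833 to 0.0860) and 0.101% (0.0994 to 0.102) of them in control replicates 1 and 2 and 0.135% (0.133 to 0.136) and 0.123% (0.121 to 0.124) in deletion replicates 1 and 2. These intervals, and the floors below, cover counting error only. Levels are CPM (counts relative to library size, scaled by TMM factors). In a 3' library a count follows transcripts and not their length, so CPM can be set side by side between genes without a correction for length. Reads shared by gene copies, and a counting annotation that is not stated, limit such rankings. Ube2n had 41.3 and 44.9 CPM in control liver against 5.88 and 5.97 CPM after deletion, which is -2.86 ± 0.16 (SE) as a log2 fold change (edgeR adjusted p = 0.00188). The groups also differed in sex-linked transcripts: Xist had 9 and 2 counts in control liver and 9590 and 3896 after deletion, and Ddx3y on the Y chromosome had 1027 and 1011 counts in the controls, 0 in deletion replicate 1 and 719 in deletion replicate 2. Genotype and this difference between the groups cannot be told apart in any result below, and 4 of the tested receptors (Tlr7, Tlr8, Tlr13 and Vsig4) are X-linked. The deletion libraries also differed from each other in Ddx3y, so the spread within that group includes such a difference.

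In the deletion libraries 4 of the receptor genes rose: Tlr2, the receptor of bacterial lipoproteins, Trem2, a lipid receptor of macrophages, Lilr4b, a leukocyte immunoglobulin-like receptor, and Clec12a, an inhibitory lectin receptor for uric acid crystals. Clec2d, the ligand of an inhibitory natural killer cell receptor, fell. These are 5 of the 71 receptor genes that had enough counts for the test, 4 higher and 1 lower at an edgeR quasi-likelihood adjusted p under 0.05. Among all 14600 genes tested 6.57% were called, 4.41% higher and 2.16% lower, so the share of receptor genes called (5.63% higher and 1.41% lower) is close to that of all genes. Of the 71, 64 passed the filter on low counts in both groups and 2 (Ms4a4c and Siglecg) through the deletion group alone. The other 5 (Trem2, Cd300lb, Ms4a4b, Tlr6 and Siglech) passed through a mix of libraries. In each of them only 1 control library reached the filter level, so they too passed only with the help of a deletion library.

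Short of a call, more receptor genes lay on the higher side than among all genes. A positive log2 fold change was seen in 56 of the 71 (78.9%), against 49.6% of all genes tested. Both deletion libraries were above both controls for 39 receptor genes and below both for 9, while 23 overlapped; among all genes 28.7% lay above and 27.3% below, 56% in all. The median log2 fold change of the 71 was 0.54 (quartiles 0.22 and 0.92), against -0.004 for all genes. At an unadjusted p under 0.05, 27 receptor genes were higher and 4 lower, against 2038 and 1527 of all genes. Because a gene that passed the filter only where it is high had to differ, the same was counted over the 64 that passed in both groups: 49 were positive (76.6%), 33 lay above and 9 below the controls, 23 were higher and 4 lower at an unadjusted p under 0.05, and the median was 0.47. The counts describe these genes and were not tested as a group. Without control replicate 2, 18 receptor genes were called higher and their median was 0.92. Without deletion replicate 1 none was called higher and the median was 0.41, and without deletion replicate 2 only 1 was. Scaling by library size alone moved the median of all genes by 0.29, gave 13 receptor genes higher and 60 of 71 positive, and raised the share of all called genes that were higher from 67.2% to 88.5%. In bulk liver, a larger number of cells of a type and more RNA per cell cannot be told apart, here or below.

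**Figure D1:**
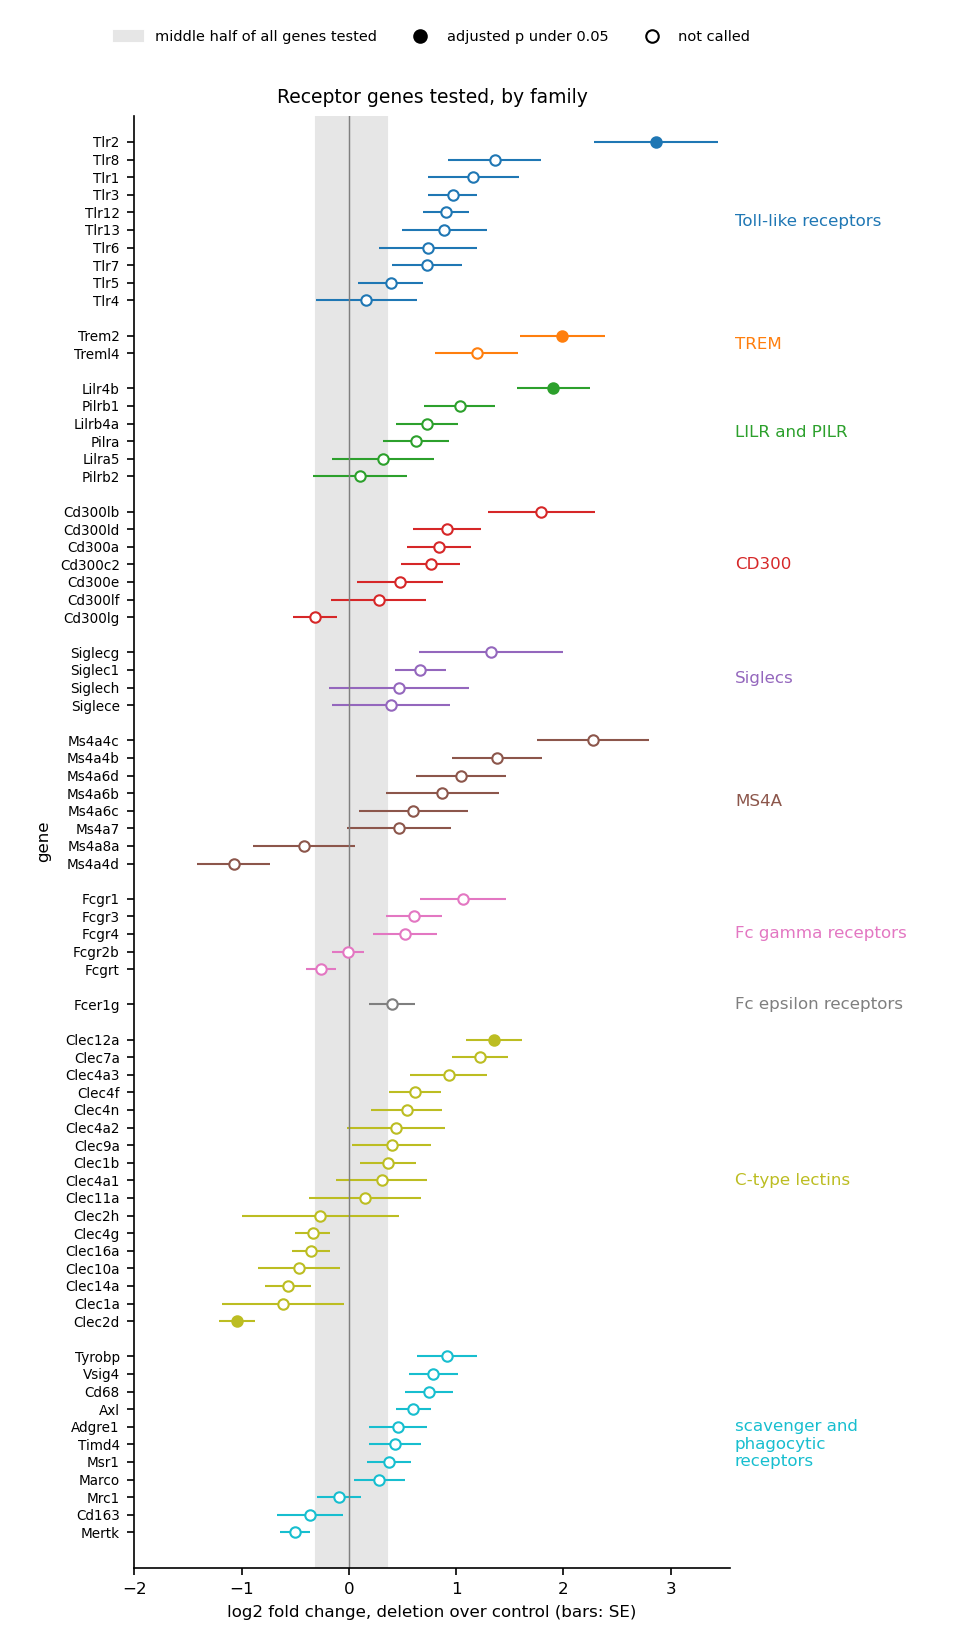
Log2 fold change (deletion over control, TMM scaling) of the 71 receptor genes tested, by family; bars are SE over 2 libraries per group, filled points have an edgeR adjusted p under 0.05, and the grey band is the middle 50% of all genes tested (-0.31 to 0.35). All 10 Toll-like receptors lie right of 0, Tlr2 farthest at 2.86, while the C-type lectins spread from -1.05 (Clec2d) to 1.35 (Clec12a).

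Among the Toll-like receptors Tlr2 rose, and the others had smaller positive differences that did not pass the test. All 10 tested had a positive log2 fold change, with a median of 0.90, and in 9 of the 10 both deletion libraries were above both controls, where 28.7% of all genes were; 1 was called higher and 0 lower, against 4.41% and 2.16% of all genes. The summed CPM of the 12 genes was 31.8 and 32.4 without deletion and 80.3 and 59.1 with it. Tlr2 (chromosome 3, 83836272 to 83841767, minus strand, GRCm38) had 55 and 22 counts in control liver and 476 and 192 after deletion. Its level was 3.39 and 1.51 CPM in the controls against 26.2 and 9.88 CPM, so the libraries of each group differed from each other more than 2-fold and the groups stood apart. The fold was 7.27 (log2 fold change 2.86 ± 0.58, adjusted p = 0.0424). The call rested on deletion replicate 1, without which the log2 fold change was 1.99 and the adjusted p 0.101, and limma-voom gave an adjusted p of 0.0897.

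TLR2 binds its ligands as a dimer with TLR1 or TLR6, whose genes are neighbours on chromosome 5. Tlr1 had 1.05 and 1.99 CPM in control liver against 3.79 and 2.99 CPM after deletion (1.16 ± 0.42, adjusted p = 0.165). Tlr6 was scarcer, at 0.987 and 0.618 CPM against 1.26 and 1.44 CPM (0.74 ± 0.46, adjusted p = 0.38). Neither partner passed the test, and both had deletion libraries above the controls, as 28.7% of all genes did. Among the sensors of nucleic acids in endosomes, Tlr3, for double-stranded RNA, had 4.69 and 5.15 CPM against 9.84 and 9.42 CPM (0.97 ± 0.23, adjusted p = 0.0629). Tlr7, Tlr8 and Tlr13, for single-stranded or ribosomal RNA, had log2 fold changes of 0.73, 1.36 and 0.89 with adjusted p from 0.125 to 0.236. Tlr9, the DNA sensor, was too scarce for the test, with 1 and 3 counts in control liver and 20 and 6 after deletion. Tlr12, a receptor for the parasite protein profilin, had 7.59 and 6.46 CPM against 12.2 and 14.2 CPM (0.91 ± 0.22, adjusted p = 0.0645). Tlr3 and Tlr12 had close replicates and groups that stood apart, and narrowly missed the threshold. Tlr5, for flagellin, had 6.85 and 4.26 CPM against 7.03 and 7.57 CPM. Tlr4, the receptor of lipopolysaccharide, was the only one of the 10 tested whose groups overlapped, with 1.36 and 3.09 CPM in control liver against 2.80 and 2.16 CPM after deletion (0.16 ± 0.47, adjusted p = 0.874), and its sign turned to -0.32 without control replicate 1.

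Genes that work with Toll-like receptors inside or beside the cell gave 4 higher and 0 lower of 22 tested, with a median of 0.29. Of all genes 4.41% were higher and 2.16% lower. This list, like the partner and marker lists below, was chosen with earlier results of these data known, so its counts are a description. Cd14, which hands lipopolysaccharide and lipoproteins to TLR4 and TLR2, rose from 3.02 and 3.85 CPM to 51.1 and 92.1 CPM (4.38 ± 0.35, adjusted p = 0.00406). Cd36, a scavenger receptor that assists the TLR2 and TLR6 pair, rose from 24.2 and 24.5 CPM to 73.3 and 61.9 CPM (1.48 ± 0.16, adjusted p = 0.008). Pik3ap1 (BCAP), an adaptor that links these receptors to PI3 kinase, rose from 59.2 and 48.9 CPM to 144.7 and 139.1 CPM (1.39 ± 0.16, adjusted p = 0.00973). Unc93b1, which carries the endosomal receptors out of the endoplasmic reticulum, rose from 37.8 and 41.8 CPM to 62.8 and 69.0 CPM (0.73 ± 0.15, adjusted p = 0.0439), a call lost without control replicate 1 (0.0635), deletion replicate 1 (0.117) or deletion replicate 2 (0.231). The most abundant of the others did not pass the test: Hsp90b1 (-0.62), Lbp (-0.23), Irak1 (0.17) and Tollip (-0.15), of which Lbp and Tollip turned positive when scaled by library size alone.

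**Figure D2:**
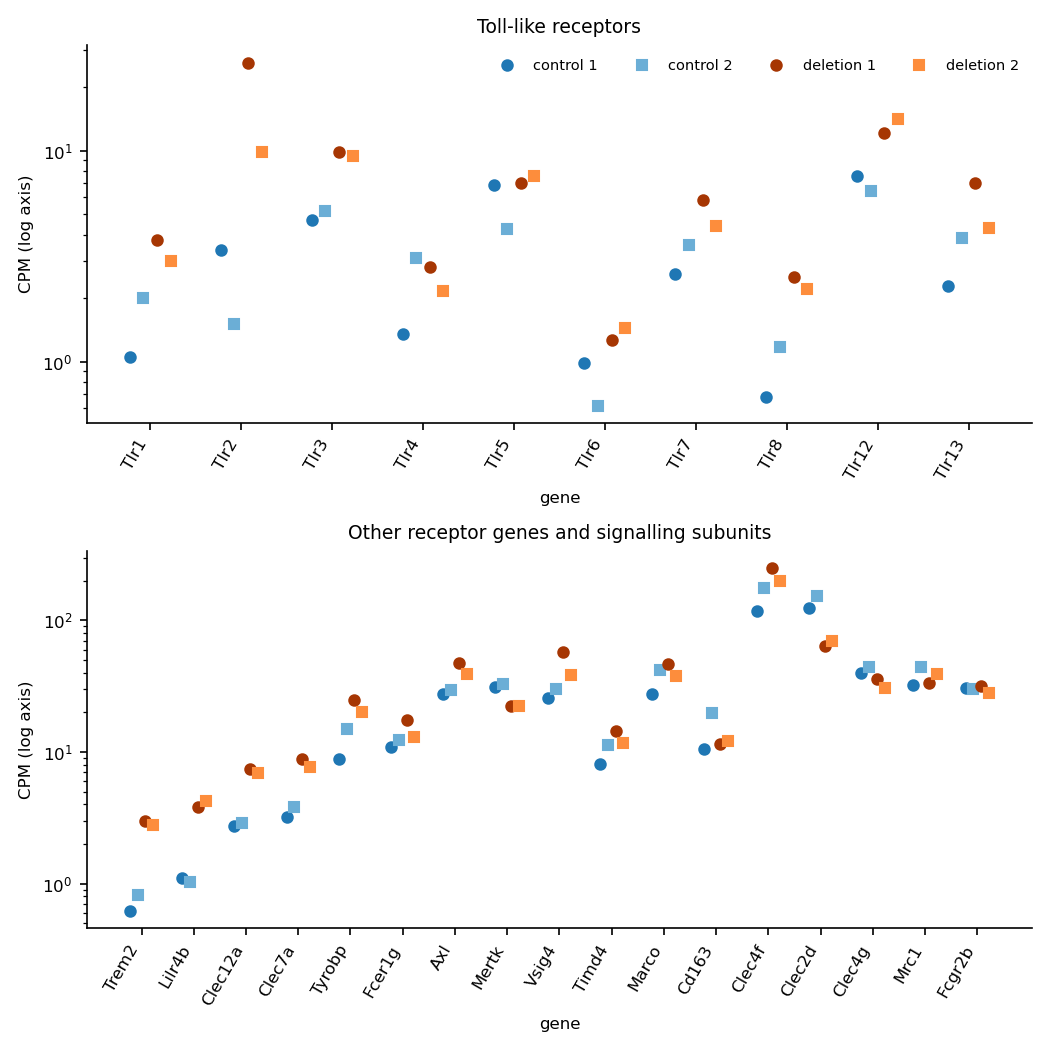
Level in each library (CPM, log axes) of the 10 Toll-like receptors tested (top) and of 17 other receptor genes and signalling subunits (bottom); circles are replicate 1 and squares replicate 2, blue for control and orange to red for deletion. Tlr2 shows the widest gap of the top panel (1.51 and 3.39 against 9.88 and 26.2 CPM), while Tlr4 overlaps; in the bottom panel Trem2 and Lilr4b stand apart by group at low levels and Clec2d is lower in both deletion libraries.

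The promoters of 3 of the called genes are shown because they carry the calls of the TREM, LILR and lectin families, and those of Tlr1 and Tlr6 because they are the dimer partners of Tlr2. Each is the 250 bases before the RefSeq start (GRCm38.p6), read 5' to 3' on the gene's strand. Capitals mark a match to the core of a PU.1 site, GAGGAAGT, or to the core of an interferon-stimulated response element (ISRE), which is GAAA, any 2 bases, GAAA; both strands were searched. The windows lie at chr17:48346151-48346400 (plus strand, Trem2), chr10:51480362-51480611 (plus strand, Lilr4b), chr6:129180365-129180614 (plus strand, Clec2d), chr5:64933559-64933808 (minus strand, Tlr1) and chr5:64959167-64959416 (minus strand, Tlr6). The window of Tlr6 holds 0 bases of annotated exon but lies inside the annotated gene (64952031 to 64960097), so by that annotation it is not upstream of the gene. Those of Tlr2 and Clec12a lie largely in annotated exons and are not shown.
Trem2: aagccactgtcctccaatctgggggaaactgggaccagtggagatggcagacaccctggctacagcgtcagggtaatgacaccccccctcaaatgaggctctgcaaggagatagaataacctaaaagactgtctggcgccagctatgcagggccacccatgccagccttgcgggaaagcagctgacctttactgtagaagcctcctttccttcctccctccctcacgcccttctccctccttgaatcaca
Lilr4b: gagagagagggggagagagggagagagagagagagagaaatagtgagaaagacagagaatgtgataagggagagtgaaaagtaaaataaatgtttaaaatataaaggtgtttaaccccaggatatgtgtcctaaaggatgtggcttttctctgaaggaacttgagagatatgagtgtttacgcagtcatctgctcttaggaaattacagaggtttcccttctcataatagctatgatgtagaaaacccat
Clec2d: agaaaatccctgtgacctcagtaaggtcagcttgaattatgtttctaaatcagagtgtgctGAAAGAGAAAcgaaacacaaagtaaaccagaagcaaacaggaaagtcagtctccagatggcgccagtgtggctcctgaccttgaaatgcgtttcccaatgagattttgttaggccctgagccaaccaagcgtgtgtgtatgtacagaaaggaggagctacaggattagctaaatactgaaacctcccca
Tlr1: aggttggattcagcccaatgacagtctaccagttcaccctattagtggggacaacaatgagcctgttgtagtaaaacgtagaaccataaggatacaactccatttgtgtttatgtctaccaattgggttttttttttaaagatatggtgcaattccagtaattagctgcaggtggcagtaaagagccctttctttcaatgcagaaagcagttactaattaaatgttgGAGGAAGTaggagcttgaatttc
Tlr6: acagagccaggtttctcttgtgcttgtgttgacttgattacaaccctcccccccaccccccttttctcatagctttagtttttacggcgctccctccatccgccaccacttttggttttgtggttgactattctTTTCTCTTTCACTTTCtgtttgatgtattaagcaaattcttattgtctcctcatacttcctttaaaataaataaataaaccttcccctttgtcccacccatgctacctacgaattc

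In these windows Clec2d held an ISRE core from 189 to 180 bases before its start. Tlr6 held the ISRE core on the opposite strand, read here as TTTC, 2 bases, TTTC, in 2 overlapping copies. These lie from 116 to 107 and from 110 to 101 bases before the RefSeq start, inside the annotated gene. Tlr1 held a PU.1 core from 23 to 16 bases before its start. Trem2 and Lilr4b held neither, nor did the windows of Tlr2 and Clec12a, so Clec2d was the only called gene with a match to any motif searched. RefSeq windows were found for 92 of the 114 genes. The PU.1 core was in 8 of these 92 (8.7%), against 2.79% of 27025 genes in the table, and the ISRE core in 10 (10.9%), against 3.46%. A site for NF-kB written as GGG, any 2 bases, TTTCC, a motif added after expression values were seen, was in 6 (6.5%), against 1.65%, among them Tlr3, Marco and Fcgr3. Some of these genes are recent copies: Cd300ld3, Cd300ld4 and Cd300ld5 hold the PU.1 core at the same place, as Pilrb1 and Pilrb2 hold the ISRE core, so the matches are not independent of each other. Of the 22 genes with a match to any of the 3 motifs, 8 have more than 30 bases of annotated exon in the window (Tlr3 with 178, Cd300ld, Cd300ld3, Cd300ld4, Cd300ld5, Ms4a18, Pilrb1 and Pilrb2), so part of those windows is not promoter by that annotation. The matching windows of Tlr6, Fcgr3 and Cd300c hold at most 27 such bases but lie inside the annotated genes, so by that annotation they are not upstream of them. Of the 59 tested receptor genes with a window, 3 held the PU.1 core, 6 the ISRE core and 4 the NF-kB site. A match is a run of letters and was not tested as a binding site.

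Trem2, which pairs with Tyrobp, binds lipids and lipoproteins and marks macrophages around dying or lipid-laden cells. It had 10 and 12 counts in the controls and 54 in each deletion library. Control replicate 1 fell short of the filter on low counts, so Trem2 passed it only with the help of the deletion libraries. Its level was 0.617 and 0.824 CPM against 2.97 and 2.78 CPM, close within each group and apart between them (1.99 ± 0.40 as a log2 fold change, or 3.97-fold, adjusted p = 0.041). This p was 0.0588 without control replicate 1 and 0.194 and 0.220 without deletion replicates 1 and 2. Treml4, a receptor that binds dead cells, was the more abundant TREM gene at 2.04 and 4.26 CPM against 6.71 and 7.62 CPM (1.19 ± 0.39, adjusted p = 0.132). The other 4 TREM genes were not tested: Treml2 had 5 counts in the control group and 21 in the deletion group, Treml1, a platelet receptor, 1 and 8, Trem3 2 and 4, and Trem1, a receptor of neutrophils and monocytes, 1 and 2.

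Lilr4b, a leukocyte immunoglobulin-like receptor of myeloid cells, rose 3.75-fold, from 1.11 and 1.03 CPM (18 and 15 counts) to 3.79 and 4.27 CPM (69 and 83 counts). The log2 fold change was 1.91 ± 0.34 (adjusted p = 0.0309), and the adjusted p was 0.119 and 0.203 without deletion replicates 1 and 2. Its near-identical neighbour on chromosome 10, Lilrb4a (gp49B), which carries inhibitory motifs, had 3.46 and 5.02 CPM against 7.09 and 6.90 CPM (0.73 ± 0.29, adjusted p = 0.192). Reads that match both copies could be split between them in the authors' counting, so both values are uncertain. Pilrb1, an activating receptor that signals through Tyrobp, had 1.91 and 2.54 CPM against 5.11 and 4.01 CPM (1.03 ± 0.33, adjusted p = 0.125). Its inhibitory partner Pilra had 3.58 and 4.603 CPM against 7.36 and 5.25 CPM (0.63 ± 0.31, adjusted p = 0.278). All 6 tested genes of these families were positive, with a median of 0.68.

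C-type lectins were divided: 10 of the 17 tested had positive and 7 negative log2 fold changes, the median was 0.31, and 1 was called in each direction (11 positive and 6 negative when scaled by library size alone, where Clec2h turned to 0.04). Clec12a rose 2.55-fold, from 2.71 and 2.89 CPM (44 and 42 counts) to 7.42 and 6.90 CPM (135 and 134 counts), with little spread within either group. The log2 fold change was 1.35 ± 0.26 (adjusted p = 0.0385), and the adjusted p was 0.160 and 0.163 without deletion replicates 1 and 2. Clec7a (dectin-1), the receptor of fungal beta-glucans, had 3.21 and 3.85 CPM against 8.79 and 7.67 CPM (1.22 ± 0.26). Its adjusted p of 0.0503 lay just outside the threshold, and DESeq2 gave 0.0239. Clec4a3 and Clec4n had 0.93 and 0.54 with deletion libraries above the controls, as 28.7% of all genes had. Reads of the Clec4a and Clec4b copies can be shared.

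Clec2d (Clr-b), which tissues display to inhibit natural killer cells through NKR-P1 receptors, was among the most abundant of the 114. It had 2025 and 2218 counts in control liver and 1169 and 1363 after deletion, or 125 and 152 CPM against 64.2 and 70.1 CPM. The fall was 2.06-fold (-1.05 ± 0.17 on the log2 scale, adjusted p = 0.0230). The adjusted p became 0.100 and 0.105 without deletion replicates 1 and 2. Clec12a and Clec2d lie in the same cluster of 13 lectin genes on chromosome 6, between 128652416 and 129472779, so a gene that rose and a gene that fell share this stretch. Clec2h, a relative of Clec2d in that cluster, had 10.9 and 3.37 CPM in control liver against 2.53 and 9.37 CPM after deletion, so each group held a high and a low library. Clec2i had 0 and 4 counts in control liver and 16 and 4 after deletion.

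Lectins of liver sinusoids did not pass the test. Clec4f, a galactose-binding lectin of Kupffer cells, had 117 and 176 CPM in control liver against 249 and 200.0 CPM after deletion (0.62 ± 0.24, adjusted p = 0.183). Clec4g (LSECtin), of sinusoidal endothelium, had 39.5 and 44.0 CPM against 35.7 and 30.4 CPM (-0.34 ± 0.16, adjusted p = 0.26). Clec14a, an endothelial protein, had 12.2 and 10.1 CPM against 7.42 and 7.62 CPM (-0.57 ± 0.22, adjusted p = 0.179). Clec1b (CLEC-2), found on platelets and on Kupffer cells, had overlapping groups at 6.91 and 9.96 CPM against 9.67 and 12.04 CPM. With TMM scaling the Kupffer lectin lay higher and both endothelial lectins lay lower in each deletion library, with spreads that do not allow a call. When scaled by library size alone, Clec4f had 0.91, Clec14a -0.28 and Clec4g -0.049, so the lower level of Clec4g depends on the scaling. Of all genes tested, 28.7% lay above and 27.3% below the controls in this way.

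Of the 6 Fc receptor genes tested, 0 were called by edgeR, DESeq2 or limma-voom. At an unadjusted edgeR p under 0.05, 2038 of all 14600 genes tested were higher, and 1 (Fcgr1) of these 6 receptor genes. Fcgrt, the neonatal Fc receptor that recycles IgG and albumin and is made by hepatocytes and endothelium, was the most abundant of them at 191 and 184 CPM in control liver against 159 and 154 CPM after deletion (-0.26 ± 0.14, adjusted p = 0.329), a sign that turned to 0.032 when scaled by library size alone. The inhibitory receptor Fcgr2b, which clears immune complexes in sinusoidal endothelium, had overlapping groups at 30.4 and 29.9 CPM against 31.8 and 27.9 CPM (-0.01 ± 0.15, adjusted p = 0.974). The activating receptors Fcgr1, Fcgr3 and Fcgr4 lay above the controls in both deletion libraries, as 28.7% of all genes did. Their log2 fold changes were 1.06 ± 0.40, 0.61 ± 0.26 and 0.52 ± 0.30, with edgeR adjusted p of 0.172, 0.222 and 0.346. Fcgr1, which binds monomeric IgG, went from 2.90 and 5.50 CPM to 10.7 and 6.79 CPM. Of the IgE receptor, the alpha chain Fcer1a had 1 count in all 4 libraries and the beta chain Ms4a2 had 0 in each, which allows up to 0.154 to 0.206 CPM per library.

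Both signalling subunits were measured well above that limit. Tyrobp, the activating partner of Trem2, Pilrb1 and several CD300 proteins, had 8.82 and 15.1 CPM in control liver against 24.7 and 20.3 CPM after deletion (0.92 ± 0.28, adjusted p = 0.112). Fcer1g, the partner of the activating Fc gamma receptors and of Clec4e, had 10.9 and 12.3 CPM against 17.6 and 13.0 CPM (0.40 ± 0.22, adjusted p = 0.317). Neither passed, and the groups did not overlap in either, as in 56% of all genes tested. Among all genes tested, 4.41% were called higher and 2.16% lower. Of 20 tested kinases, adaptors and effectors downstream of such subunits, 1 was called higher and 0 lower, with a median of 0.51. That gene, the Src family kinase Fgr, rose from 2.71 and 3.09 CPM to 6.81 and 7.87 CPM (1.34 ± 0.27, adjusted p = 0.0422), with an adjusted p of 0.118 and 0.230 without deletion replicates 1 and 2. On the inhibitory side, 1 of 12 tested genes was called higher and 0 lower, with a median of 0.57. It was Sirpa, the receptor of the "do not eat" signal CD47, which rose from 29.1 and 26.2 CPM to 94.2 and 86.6 CPM (1.71 ± 0.15, adjusted p = 0.00524).

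The CD300 genes, which code for lipid-binding receptors that come in activating and inhibitory forms, had a median of 0.76. Of the 7 tested, 0 were called by edgeR, DESeq2 or limma-voom. At an unadjusted edgeR p under 0.05, 2038 of all 14600 genes tested were higher, and 4 of these 7. Cd300lb, an activating receptor for dead cells, had 11 and 6 counts in control liver and 43 and 29 after deletion (1.80 ± 0.50, edgeR adjusted p = 0.0949). It passed the filter on low counts only with the help of the deletion libraries. Cd300ld was the most abundant at 5.24 and 8.31 CPM against 15.2 and 10.3 CPM (0.91 ± 0.32, adjusted p = 0.15), though copies of it can share reads. Cd300a, an inhibitory receptor for phosphatidylserine, had 3.33 and 4.81 CPM against 6.60 and 7.93 CPM (0.84 ± 0.30, adjusted p = 0.156). Cd300lg, which is carried by endothelium and not by myeloid cells, was the one member below the controls in both deletion libraries. It had 10.1 and 10.2 CPM against 8.41 and 7.93 CPM (-0.31 ± 0.21, edgeR adjusted p = 0.409). Of all genes tested 27.3% lay below in this way, and Cd300lg had -0.022 when scaled by library size alone.

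The MS4A genes code for tetraspan membrane proteins and lie together on chromosome 19 from 10962293 to 11640851, all 19 of them. Of the 8 tested, 6 were positive and 2 negative, with a median of 0.74, and 0 were called by edgeR, DESeq2 or limma-voom. At an unadjusted edgeR p under 0.05, 3 (Ms4a4c among them) were higher and 1 lower, against 2038 and 1527 of all 14600 genes tested. Ms4a4c, which passed the filter on low counts through the deletion libraries alone and so had to differ, went from 5 and 4 counts in the controls to 31 and 23 in the deletion libraries (2.27 ± 0.52, adjusted p = 0.0591). Ms4a4b, which passed that filter only with the help of the deletion libraries, had 0.679 and 0.618 CPM against 1.65 and 1.75 CPM (1.38 ± 0.42, edgeR adjusted p = 0.113). Its neighbour in the cluster Ms4a4d went the other way, at 3.76 and 4.95 CPM against 1.76 and 2.37 CPM (-1.07 ± 0.34, adjusted p = 0.124). Groups did not overlap for these 3 genes, as for 56% of all genes tested. The most abundant, Ms4a6b, overlapped at 1.73 and 4.74 CPM against 7.47 and 4.32 CPM (0.87 ± 0.53, adjusted p = 0.369). Ms4a1 (CD20), the B cell member, had 1 and 5 counts in each group.

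Siglecs bind sialic acids on other cells. Siglec1 (sialoadhesin), a receptor of resident macrophages, had 13.5 and 21.4 CPM in the controls against 28.5 and 26.7 CPM (0.67 ± 0.24, adjusted p = 0.159). Siglecg, which also passed through the deletion libraries alone, had 2 and 5 counts in the controls and 11 in each deletion library (1.32 ± 0.67, adjusted p = 0.292). Siglece, an inhibitory receptor of myeloid cells, overlapped, with 3.15 CPM in control replicate 1 and 7.26 to 10.8 CPM in the other libraries. Of the 4 tested, 0 were called by edgeR, DESeq2 or limma-voom. At an unadjusted edgeR p under 0.05, 1 was higher, as were 2038 of all 14600 genes tested.

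Of the 11 scavenger and phagocytic receptors tested, 0 were called by edgeR or limma-voom and 1 (Vsig4) by DESeq2. At an unadjusted edgeR p under 0.05, 2038 of all 14600 genes tested were higher and 1527 lower. Of these 11 receptors 4 were higher and 1 lower at that p. Among those that take up apoptotic cells the signs differed. Axl, a receptor tyrosine kinase that binds phosphatidylserine through Gas6, had 27.4 and 29.4 CPM in control liver against 47.1 and 39.0 CPM after deletion (0.60 ± 0.16, adjusted p = 0.0866). Its relative Mertk had 31.2 and 32.8 CPM against 22.5 CPM in each deletion library (-0.51 ± 0.14, adjusted p = 0.0957). The groups did not overlap for either gene, as for 56% of all genes tested, and the sign was opposite. Timd4, a phosphatidylserine receptor of resident Kupffer cells, had 8.14 and 11.3 CPM against 14.5 and 11.7 CPM (0.43 ± 0.24, adjusted p = 0.34). Of 14 bridging proteins and other ligands of phagocytic receptors, 1 rose and 1 fell, against 4.41% and 2.16% of all genes. Their median was 0.57. Mfge8, which bridges phosphatidylserine to integrins, rose from 20.8 and 22.1 CPM to 416 and 600 CPM (4.56 ± 0.25, adjusted p = 0.00188). Mbl2, a hepatocyte-made opsonin of the lectin pathway, fell from 500 and 516 CPM to 232 and 265 CPM (-1.03 ± 0.16, adjusted p = 0.0225), with an adjusted p of 0.0957 and 0.0825 without deletion replicates 1 and 2. Gas6 had 71.3 and 51.9 CPM against 106 and 162 CPM (1.12 ± 0.26, adjusted p = 0.0601).

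Other scavenger and macrophage receptors differed in how far their groups stood apart. Vsig4, a complement receptor of Kupffer cells, had 25.6 and 30.1 CPM against 57.5 and 38.7 CPM (0.79 ± 0.23, adjusted p = 0.0993). Cd68, a lysosomal glycoprotein of macrophages, had 9.01 and 12.7 CPM against 19.7 and 16.7 CPM (0.75 ± 0.23, adjusted p = 0.112). Marco, a scavenger receptor for bacteria, had 27.5 and 41.6 CPM against 46.3 and 37.7 CPM, and Adgre1 (F4/80) had 16.4 and 24.2 CPM against 33.5 and 22.2 CPM, so the groups overlapped for both. Cd163, the haemoglobin-haptoglobin receptor, had 10.6 and 19.9 CPM against 11.4 and 12.2 CPM (-0.36 ± 0.31, adjusted p = 0.534). Mrc1, the mannose receptor of sinusoidal endothelium and macrophages, overlapped at 32.1 and 44.6 CPM against 33.1 and 38.9 CPM (-0.09 ± 0.20, adjusted p = 0.835). Under scaling by library size alone Mrc1 and Fcgr2b turned positive, at 0.21 and 0.28.

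Marker lists of whole cell types also differed in level between the libraries. The 15 Kupffer cell markers, of which 6 are receptors named here, summed to 776 and 1057 CPM in control liver against 1343 and 1098 CPM after deletion. Of the 15, 1 was called higher (Cd5l) and 0 lower, against 4.41% and 2.16% of all genes, and the median was 0.55. The 10 pan-leukocyte genes, none of them a receptor of these families, summed to 144 and 161 CPM against 239 and 213 CPM. Their median was 0.81, 0 were called by edgeR or limma-voom, and 1 was higher by DESeq2. At an unadjusted edgeR p under 0.05, 6 were higher, as were 2038 of all 14600 genes tested. Of 16 tested markers of lipid-associated and monocyte-derived macrophages, 6 rose (Cx3cr1, Trem2, Gpnmb, Cd9, Cd63 and Lgals3) and 0 fell, against 4.41% and 2.16% of all genes. This list was chosen, as the others were, with earlier results of these data known, so its counts are a description. It includes 3 of the receptor genes (Trem2, Clec7a and Ms4a7), so it overlaps the Trem2 call above. Its sum of 461 and 285 CPM against 472 and 707 CPM set the groups apart by a narrow margin between 461 and 472 CPM. The 15 markers of sinusoidal endothelium summed to 436 and 507 CPM against 398 and 400.1 CPM, with a median of -0.28. Scaling by library size alone moved the median of all genes by 0.29, about the size of this difference, so its direction depends on the scaling. Of these markers 0 were called by edgeR or limma-voom and 1 was lower by DESeq2. At an unadjusted edgeR p under 0.05, 3 were lower, as were 1527 of all 14600 genes tested. The neutrophil markers, of which 3 of 13 had enough counts for the test, summed to 2.41 and 5.84 CPM against 10.6 and 9.88 CPM, and their defining marker Ly6g was at 0 in every library. Hepatocyte markers, 12 in all, had 4 called lower and 0 higher, against 2.16% and 4.41% of all genes. They summed to 191600 and 186300 CPM against 98740 and 96610 CPM. The part of these shifts in the receptor values was not tested.

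**Figure D3:**
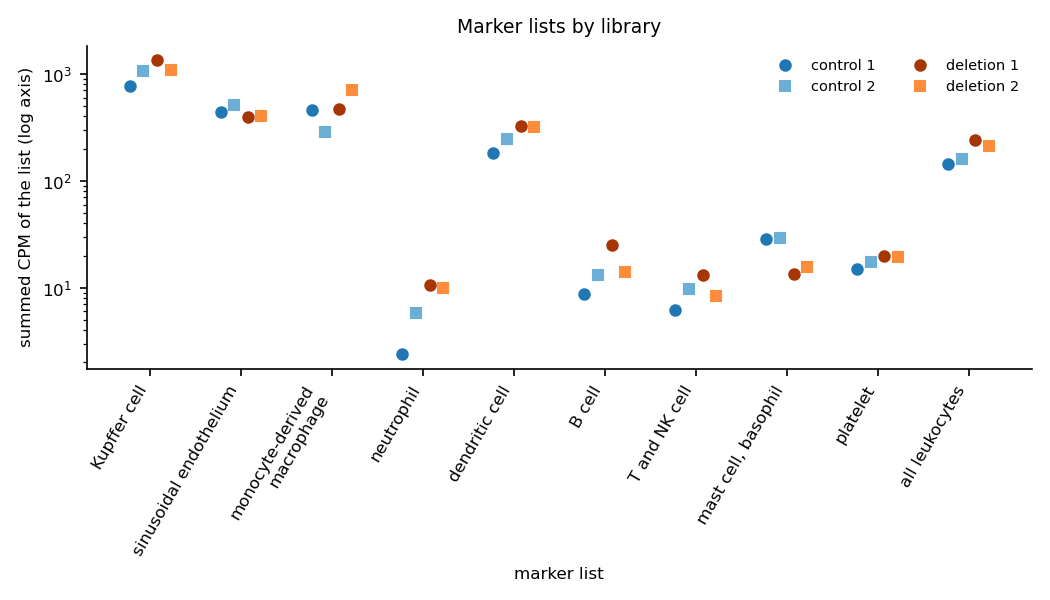
Summed level (CPM, log axis) of 10 marker lists in each library; circles are replicate 1 and squares replicate 2, blue for control and orange to red for deletion. Pan-leukocyte genes lie higher in both deletion libraries (239 and 213 against 144 and 161 CPM). Sinusoidal endothelial markers lie lower (398 and 400.1 against 436 and 507 CPM) under TMM scaling, a direction that depends on the scaling.

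To set receptors against a macrophage transcript, each count was divided by the summed C1qa, C1qb and C1qc counts of its library in place of the TMM-scaled library size, a reference chosen after expression values were seen. C1q, the first complement component, is made in liver mainly by Kupffer cells, and its counts were 2422 and 3158 without deletion and 5528 and 4869 with it. Clec4f held a steady ratio, with 783 and 812 counts per 1000 C1q counts in control liver and 820 and 798 after deletion. On this measure 22 of the 71 receptor genes were above the controls in both deletion libraries, 18 below and 31 overlapped, where 6.86% of all genes tested were above and 59.2% below. Tlr2 went from 22.7 and 6.97 per 1000 to 86.1 and 39.4, a ratio of 4.23 between the group means. Trem2 went from 4.13 and 3.80 to 9.77 and 11.1 (2.63), and Lilr4b from 7.43 and 4.75 to 12.5 and 17.1 (2.42). Clec12a, at 18.2 and 13.3 against 24.4 and 27.5 (1.65), and Tyrobp, at 59.0 and 69.4 against 81.4 and 80.9 (1.26), also had groups that did not overlap. Tlr2, Trem2, Lilr4b and Clec12a were called in these same libraries, so their ratios are a description.

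Other Kupffer cell receptors were divided on this measure. Vsig4 and Adgre1 overlapped, with ratios between group means of 1.11 and 0.9, as did the macrophage receptor Siglec1 with 1.06. Timd4 (0.886), Marco (0.807) and Cd163 (0.532) were below the controls in both deletion libraries. So were the endothelial receptors Fcgr2b (0.634), Mrc1 (0.628) and Clec4g (0.511) and the hepatocyte and endothelial Fcgrt (0.536). Mertk went from 209 and 151 per 1000 C1q counts to 74.2 and 90.0 (0.456) and Clec2d from 836 and 702 to 211 and 280 (0.319), with groups apart for both.

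**Figure D4:**
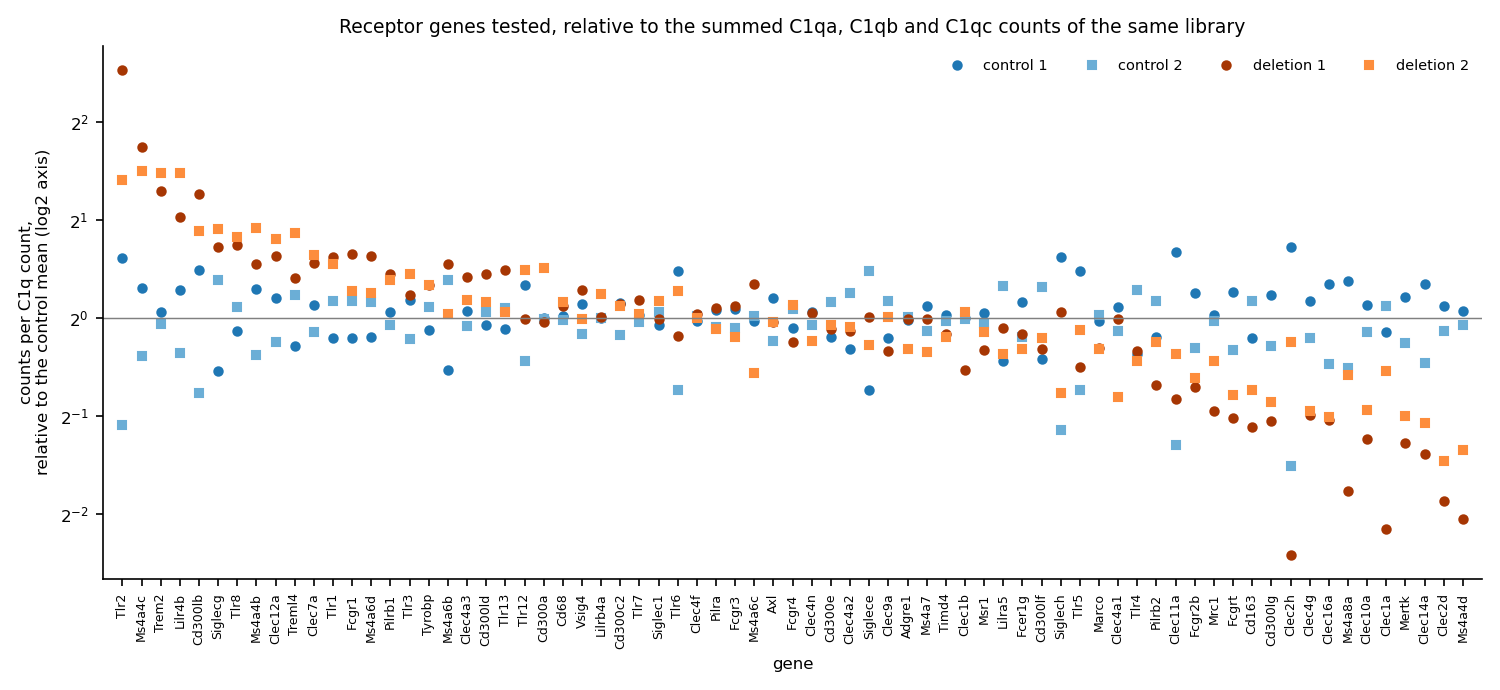
Counts of each of the 71 receptor genes tested per C1q count (C1qa, C1qb and C1qc summed) of the same library, relative to the control mean (log2 axis), ordered by the ratio between group means; circles are replicate 1 and squares replicate 2, blue for control and orange to red for deletion. Tlr2 (4.23), Ms4a4c (3.1) and Trem2 (2.63) are at the left end, Clec4f stays near 1 in all 4 libraries, and Clec2d (0.319) and Ms4a4d (0.318) are at the right end.

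The 43 receptor genes left untested had at most 24 counts in any library. Of these, 13 had 0 counts in all 4 libraries, 6 of them MS4A genes and 4 C-type lectins. Of the 30 with counts, 23 had more in the deletion group, 4 had more in the control group and 3 had equal numbers. Divided by the scaled library sizes, 23 (76.7%) were higher in the deletion group and 7 (23.3%) in the control group, against 49.5% and 50.5% of all 11048 untested genes with counts. Ratios of scaled group counts, with exact 95% counting intervals, were 5.31 (1.84 to 21.0) for Tlr9, 8.99 (1.31 to 387) for Cd300c, 3.43 (1.26 to 11.7) for Treml2, 4.09 (1.37 to 16.4) for Clec2i and 2.69 (1.12 to 7.41) for Ms4a4a, a gene next to Ms4a4c and Ms4a4b in name and cluster. Clec4e (Mincle), a receptor for dead cells, had 1 count in the control group and 7 in the deletion group, a ratio of 5.72 (0.735 to 258). Clec3b (tetranectin) had 26 and 12, a ratio of 0.377 (0.173 to 0.775), with 24 of the 26 in control replicate 1. Some rest on 1 library: 20 of the 26 Tlr9 counts in the deletion group came from replicate 1. For Clec2i 16 of 20 came from replicate 1, and its groups overlapped. For Ms4a4a 17 of 23 came from replicate 2.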

How the data were processed

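The 4 liver samples, 2 control and 2 deletion, were grouped by the title and genotype labels. Per the labels' protocols, the QuantSeq 3' kit gave libraries that were sequenced from a single end (75 bp, NextSeq 550), aligned with Bowtie2 and analysed with edgeR using TMM and CPM. The build was mm10 (GRCm38), per the submitters' processing notes. No source used here states the counting program, its strand setting or its annotation. Raw counts per Ensembl gene were deposited in 1 table with 4 columns, 1 per sample and 0 unmapped. Symbols and coordinates (counted from 1, GRCm38) came from GENCODE M21, which matched 52029 of 56953 rows; the other 4924 took 0.188% to 0.233% of each library.

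In R 4.3.3, the two-sided quasi-likelihood F test of edgeR 4.0.16, with TMM scaling and genotype as sole covariate, was fitted to the 14600 genes that passed filterByExpr (minimum count 10, total 15), with Benjamini-Hochberg adjustment over all of them and calls under 0.05. The residual degrees of freedom were 2 and the prior 4.14. SE is the size of the log2 fold change divided by the root of F. An exact permutation test of 2 libraries against 2 cannot go below a two-sided p of 0.333 and was not used. A count of 3 in a library, taken as the floor, is 0.154 to 0.206 CPM. Replicates of a group differed beyond sampling noise (chi-square per degree of freedom 38.9 between controls, 25.3 between deletion libraries). Alternatives were RLE factors, library sizes alone, no filter, DESeq2 1.42.0, limma-voom (limma 3.58.1), leaving out each library, and a replicate block.

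The receptor genes and the 17 partner and marker lists were chosen with earlier results of these data known. Named were every receptor gene called, the most abundant and the most different of each family, Kupffer and endothelial markers, Tyrobp, Fcer1g, Tlr2, Tlr4, Trem2, Axl and Mertk, and in partner lists every called gene and up to 4 abundant others; other members, and Gas6, were chosen after their values were seen. Of the lists not described in the report, dendritic cell, B cell, T and natural killer cell and platelet markers had 0 called (3, 2, 0 and 0 higher at an unadjusted edgeR p under 0.05; DESeq2 called 1, 1, 0 and 0), cholangiocyte markers 2 higher, stellate cell markers 1 lower and mast cell and basophil markers 1 lower. Of all 14600 genes tested, 2038 were higher at that unadjusted p, and edgeR called 4.41% higher and 2.16% lower. Promoters are from RefSeq (GRCm38.p6).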

Additional observations from a re-analysis of the deposited data

How the results depend on the processing

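Tlr2, Trem2, Lilr4b, Clec12a and Clec2d all kept their call with RLE factors, library sizes alone, no filter and DESeq2, and 4 of the 5 with limma-voom. None of the 5 was called without deletion replicate 1, and Tlr2 alone without deletion replicate 2. Genes called over all genes tested numbered 959, against 1764 with library sizes alone, 2768 with no filter, 1567 with DESeq2 and 343 to 2081 when a library was left out. Receptor genes called higher numbered 4, against 13 with library sizes alone, 20 with no filter (101 tested) and 0 to 18 when a library was left out; those called lower numbered 1, against 0 to 1. The median of the receptor genes was 0.54, against 0.83 with library sizes alone and 0.41 to 0.92 when a library was left out. The cause of these shifts was not tested.

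Signs that turned concerned genes that were not called: with library sizes alone Fcgrt had 0.032, Fcgr2b 0.28, Mrc1 0.21, Lbp 0.074 and Tollip 0.14. When a library was left out, Cd163 ranged from -0.75 to 0.16, Fcgr2b from -0.12 to 0.078, Mrc1 from -0.31 to 0.16, Tlr4 from -0.32 to 0.87, Lbp from -0.53 to 0.059 and Pirb, a receptor of the inhibitory list, from -0.30 to 0.83. Of 582 values for 53 named genes under alternatives, 494 kept direction and side of the threshold, 48 passed it newly, 25 lost it and 15 changed sign.

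Replicates 1 and 2 of the groups share only a number (correlation of their differences across genes -0.12). With the number as a replicate block 390 genes were called, of the receptors 1 higher (Tlr2) and 0 lower. A replicate block with crossed numbers, chosen after seeing the data, gave 1366 genes called, of the receptors 9 higher and 1 lower. Without a library, the group's lone sample is assumed to vary like the other group. Depth limits the 43 untested genes, with at most 24 counts in a library.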
